A study of Homo sapiens with 4 samples.

Results

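Feedback brakes and target genes of RAS and MAP kinase signalling were followed across 4 human leukemia lines of the precursor-B lymphoblastic type. They were DUSP4, DUSP5, DUSP6, SPRY1, SPRY2, SPRY4, SPRED1, ETV4, ETV5 and EGR1, taken by symbol as 10 of the 23368 entries of the deposited count table. The lines RS4;11 and SEM carry the translocation t(4;11), and the lines NALM6 and REH, labelled as lacking it, served as controls. All 4 were untreated cultures in RPMI medium with fetal bovine serum, grown to sub-confluence, and each gave 1 mRNA library. Each line descends from 1 leukemia, so the comparison of 2 lines with 2 (n = 2 per group) contains every other genetic difference between them. A p-value here sets the difference between the groups against the spread between these lines, estimated in part from all genes together. It covers no other lines, and the lines within a group had no replicate library.

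Receptor signals switch RAS to its GTP-bound form, which drives the kinases RAF, MEK and ERK in turn. Active ERK induces transcription factors such as EGR1, ETV4 and ETV5 and also induces its own brakes. Dual-specificity phosphatases (DUSP) take phosphate off ERK, and Sprouty (SPRY) and SPRED proteins act upstream, at the level of receptors, RAS and RAF. In precursor-B leukemia this feedback, DUSP6 above all, is known as a limit on ERK activity that transformed cells come to need.

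Promoters were available for 6 of the 10 genes, as 9 windows of the 250 bases before a RefSeq transcript start (GRCh38.p14). DUSP4, DUSP5, ETV4 and ETV5 had no entry. The sequences below are those of the 3 genes that were higher in RS4;11 and SEM than in either control. Capitals mark matches to the motifs searched on both strands, none of which overlapped another. These were the CArG box bound by serum response factor, the cyclic AMP response element TGACGTCA, the AP-1 site TGANTCA, the ETS site CCGGAAGT and the GC box GGGCGG. The first is EGR1 on chr5:138465229-138465478, plus strand. The next is the outermost of 3 SPRY2 starts, on chr13:80341127-80341376, minus strand. The last is a short stretch around the single match of SPRY4, on chr5:142324415-142324440, minus strand, where the window runs through a longer annotated transcript.
EGR1: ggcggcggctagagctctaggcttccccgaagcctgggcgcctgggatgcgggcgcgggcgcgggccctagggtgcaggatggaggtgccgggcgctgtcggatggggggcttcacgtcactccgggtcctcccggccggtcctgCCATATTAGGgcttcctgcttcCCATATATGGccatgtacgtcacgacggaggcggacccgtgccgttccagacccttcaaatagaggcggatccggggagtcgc
SPRY2: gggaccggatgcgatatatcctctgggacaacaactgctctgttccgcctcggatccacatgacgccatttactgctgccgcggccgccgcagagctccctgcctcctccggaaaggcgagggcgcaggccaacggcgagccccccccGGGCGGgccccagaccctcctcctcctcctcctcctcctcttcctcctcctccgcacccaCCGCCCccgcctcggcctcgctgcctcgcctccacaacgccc
SPRY4: ccctcgctctGGGCGGctcgcccacc

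EGR1 was the only one of the 6 with a CArG box. It held 2 of them, beginning 105 and 83 bases before the start, and 1.16% of all 35116 promoter windows of this length held at least 1. GC boxes were found for SPRY1, SPRY2, SPRY4 and SPRED1, a motif held by 42.6% of all windows. No member window held the cyclic AMP element (1.65% of all windows), the AP-1 site (6.57%) or the ETS site (3.42%). The DUSP6 window held none of the 5 motifs. A match describes letters only and was not tested as a binding site.

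Library totals ranged between 33620574 gene counts (SEM) and 84212986 (REH), and levels are counts scaled to a common library total (CPM). A floor of 3 counts corresponds to between 0.0356 CPM (REH) and 0.0892 CPM (SEM), and intervals given for counts are 95% exact Poisson intervals that cover counting error only. The labelled cell type was checked with 10 markers of B-cell precursors, all of which were at or above the floor in every line. They summed to 2207 CPM in RS4;11 and 1073 CPM in SEM, whereas NALM6 had 4626 CPM and REH 8318 CPM. MME (CD10), singled out after its values were seen, had 1.02 CPM (RS4;11) and 0.476 CPM (SEM), and 975 CPM (NALM6) and 1031 CPM (REH) in the controls. T-cell markers CD3D, CD3E and CD3G were at 0 counts in all 4 lines, and the 5 T-cell markers summed to at most 0.867 CPM. The 5 myeloid markers summed to 13.7 CPM in RS4;11 and 37.6 CPM in SEM, whereas NALM6 had 8.56 CPM and REH 39.8 CPM, with ELANE at 0 in all lines. Of these, CSF1R had 10.0 CPM (RS4;11) and 33.3 CPM (SEM), and 0.0892 CPM (NALM6) and 5.27 CPM (REH) in the controls, and most of the sum in REH was MPO (34.2 CPM). Erythroid markers stayed at or under 0.463 CPM. Stromal and epithelial markers summed to 1.81 and 4.16 CPM in RS4;11 and SEM and 0.245 and 3.06 CPM in NALM6 and REH, with COL1A2 at 0 in all 4. The B-cell precursor sum and CSF1R thus did not overlap between the groups, and their part in the results on the 10 genes was not tested.

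The 10 genes did not move as a block. SPRY4, EGR1 and SPRY2 had higher levels in RS4;11 and in SEM than in either control. DUSP6 and SPRY1 had lower levels in RS4;11 and in SEM. The counting intervals of SEM and NALM6 overlapped for DUSP6, and those of RS4;11 and REH for SPRY2. Under another scaling of the libraries, DUSP6 no longer separated the groups. Among all genes tested, 19.0% were higher and 28.3% lower in each t(4;11) line than in either control. DUSP4, SPRED1, ETV4 and ETV5 overlapped between the groups. DUSP5 was near absent.

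**Figure D1:**
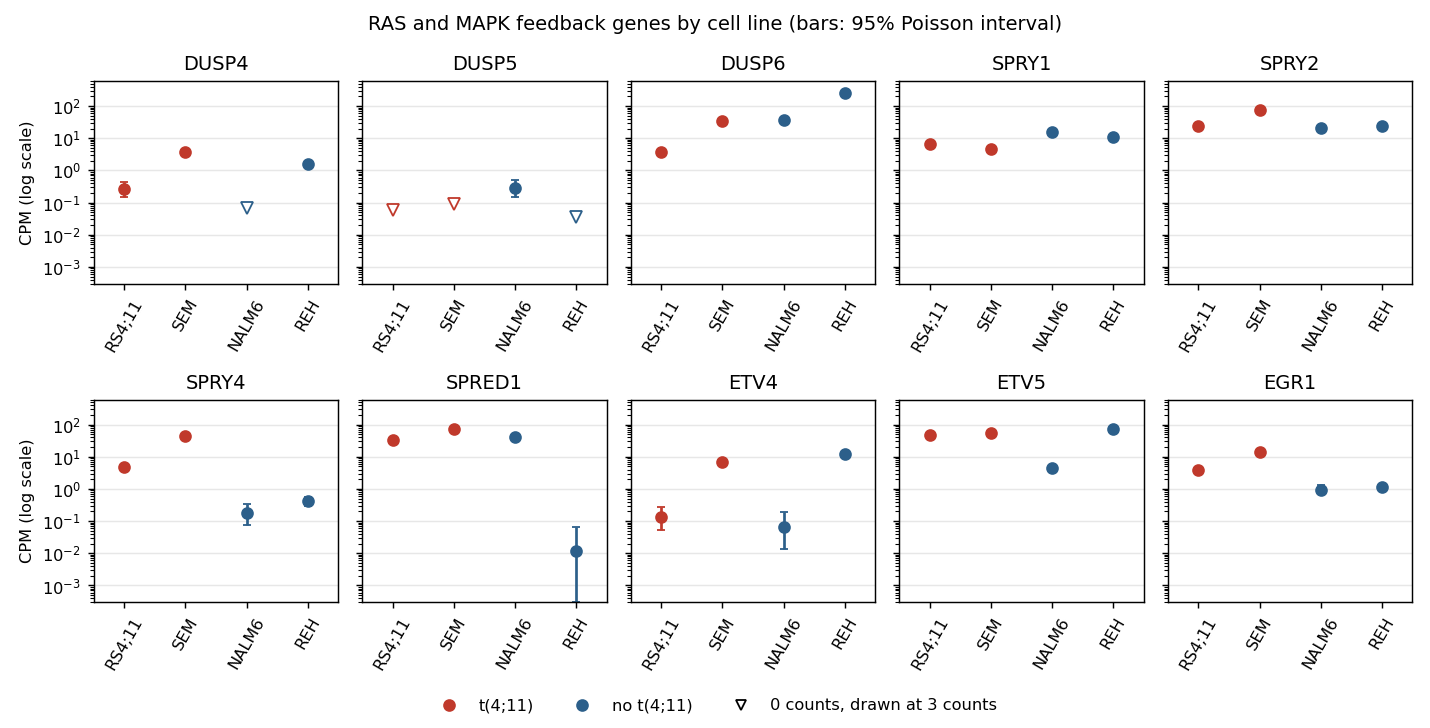
Level of each of the 10 genes (CPM, log scale) in the t(4;11) lines RS4;11 and SEM (red) and the lines NALM6 and REH without it (blue). Points are single libraries with 95% Poisson intervals, and an open triangle stands for 0 counts, drawn at 3 counts. SPRY4 and EGR1 sit higher in both red lines, and SPRED1 drops to 1 count in REH.

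Among the upstream inhibitors, SPRY4 had the widest gap between the groups. This Sprouty protein blocks receptor-driven activation of RAS and RAF. RS4;11 had 4.88 CPM and SEM 42.7 CPM, whereas NALM6 had 0.178 CPM and REH 0.416 CPM (8 and 35 counts). In bulk libraries fewer cells with a transcript and less of it per cell cannot be told apart. Both t(4;11) lines were above both controls, and the intervals of NALM6 and REH overlapped. SPRY4 lies on chromosome 5 (141689992 to 141704620, hg19). Its log2 fold change was 6.39 (SE 1.50), with an unadjusted p of 0.0151 and an adjusted p of 0.346 in edgeR's quasi-likelihood test. DESeq2 and edgeR's exact test did call it higher, with adjusted p-values of 1.09e-05 and 0.0140. Without SEM, the line with the most SPRY4, the log2 fold change was 4.15.

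SPRY2, a Sprouty relative with the same role, differed less between the lines than SPRY4. The 4 lines had 24.5 CPM (RS4;11), 77.5 CPM (SEM), 21.6 CPM (NALM6) and 24.0 CPM (REH). SEM stood apart, while RS4;11 had overlapping counting intervals with REH. The log2 fold change was 1.26 (SE 0.63, edgeR adjusted p = 0.518) and only 0.23 without SEM. SPRY2 lies on chromosome 13 (80910112 to 80915086, hg19).

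SPRY1, the remaining Sprouty gene measured, ran the other way. RS4;11 had 6.44 CPM and SEM 4.58 CPM, whereas NALM6 had 15.2 CPM and REH 11.3 CPM. Both t(4;11) lines were below both controls, and no 2 lines had overlapping counting intervals. The log2 fold change was -1.16 (SE 0.48, edgeR adjusted p = 0.464), and it stayed between -1.43 and -0.91 when any 1 line was left out. The lines of each group differed by 1.41-fold (RS4;11 over SEM) and 1.34-fold (NALM6 over REH). SPRY1 lies on chromosome 4 (124317956 to 124324909, hg19).

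SPRED1, which binds neurofibromin and brings this RAS inactivator to the membrane, was expressed in 3 lines and almost absent in 1. RS4;11 had 33.2 CPM, SEM 74.0 CPM and NALM6 42.5 CPM, but REH had a single count, in the deepest library (0.0119 CPM, interval 0.000301 to 0.0662). NALM6 was above REH by 3579-fold, with a counting interval of 642 to 141429. Groups therefore overlapped, and the log2 fold change, 1.44 with all lines (SE 2.64, edgeR adjusted p = 0.861), was 0.43 once REH was left out. Without NALM6, which leaves REH as the lone control, the fitted value was 11.98. A level under 0.1 CPM in 1 line with at least 30 CPM in each of the others was rare. It held for 24 of the 13844 genes tested (0.173%), of which 13 had their low value in REH, 10 in NALM6 and 1 in SEM. These limits were set after the SPRED1 values were seen.

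The genes beside SPRED1 on chromosome 15 (SPRED1 at 38545052 to 38649450, hg19) were also examined. Going towards lower coordinates, the nearest expressed gene was MEIS2, a homeobox gene, with 5.17 CPM (RS4;11), 6.45 CPM (SEM), 10.8 CPM (NALM6) and 0 counts (REH). Beyond it, C15orf41 had 6.40 CPM (RS4;11) and 10.7 CPM (SEM), and 11.6 CPM (NALM6) and 10.6 CPM (REH) in the controls. On the other side FAM98B, which ends at 38777063, had 64.4 CPM (RS4;11) and 60.4 CPM (SEM), and 53.0 CPM (NALM6) and 69.9 CPM (REH) in the controls. RASGRP1, a RAS activator of lymphocytes next to FAM98B, had 58.1 CPM (RS4;11) and 49.3 CPM (SEM), and 9.36 CPM (NALM6) and 78.0 CPM (REH) in the controls. Low counts in REH thus covered MEIS2 and SPRED1 but neither C15orf41 nor FAM98B, the expressed genes on either side of this pair. What underlies this was not tested.

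**Figure D2:**
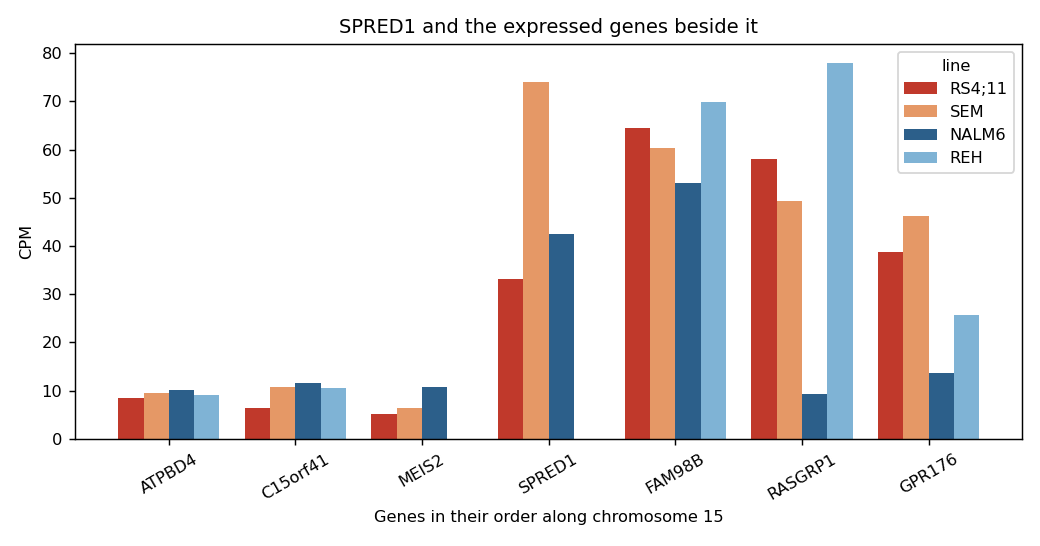
CPM of SPRED1 and of the 3 expressed genes on each side of it along chromosome 15, as bars per line, with expressed meaning at least 1 CPM over the 4 libraries together. REH has no visible bar at MEIS2 (0 counts) and SPRED1 (1 count), while its bars at FAM98B and RASGRP1 reach 69.9 and 78.0 CPM.

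DUSP6 was the only member called in a deposited table. It is a cytoplasmic phosphatase selective for ERK. RS4;11 had 3.82 CPM and SEM 35.0 CPM, whereas NALM6 had 36.7 CPM and REH 262 CPM. RS4;11 was low and REH high. SEM and NALM6 had overlapping counting intervals and changed places when TMM library sizes were used (36.0 CPM in SEM against 35.4 CPM in NALM6), so the groups no longer separated. The log2 fold change was -2.86 (SE 1.55, edgeR adjusted p = 0.542), and it was -0.83 without REH. In the authors' deposited Cuffdiff table DUSP6 was called lower with t(4;11) (log2 fold change -2.85, q = 0.0134), as were 1.11% of the genes tested there. The gene lies on chromosome 12 (89741837 to 89746296, hg19).

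DUSP4, a nuclear phosphatase of ERK and other MAP kinases, was expressed at a low level in 2 lines, 1 of each group. SEM had 3.72 CPM and RS4;11 0.270 CPM, against 1.63 CPM in REH and 0 counts in NALM6. The order of all 4 lines was clear of counting error, but the groups overlapped. The fitted log2 fold change, 1.36 (SE 2.54, edgeR adjusted p = 0.863), had the opposite sign, -1.47, without SEM. DUSP5, another nuclear ERK phosphatase, had 0 counts in RS4;11, SEM and REH and 13 counts in NALM6 (0.290 CPM, interval 0.154 to 0.496). It was the only member that did not pass the filter on low counts and was not tested.

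The ETS factors ETV4 and ETV5, transcription factors of the PEA3 group whose genes follow ERK activity, were both lowest in NALM6 and highest in REH. ETV5 had 48.5 CPM (RS4;11) and 55.7 CPM (SEM), and 4.57 CPM (NALM6) and 72.5 CPM (REH) in the controls. RS4;11, SEM and REH were thus close to each other and NALM6 stood far below them. The log2 fold change was 0.53 (SE 1.31, edgeR adjusted p = 0.899), but 3.61 without REH and -0.37 without NALM6. ETV4 split each group. RS4;11 had 0.135 CPM (7 counts) and SEM 7.08 CPM, whereas NALM6 had 0.0669 CPM (3 counts) and REH 12.3 CPM. The counting intervals of RS4;11 and NALM6 overlapped for ETV4. The fitted log2 fold change, -0.70 (SE 2.69, edgeR adjusted p = 0.937), became 5.78 without REH and -5.37 without SEM. The sign for either gene thus rested on which lines were included.

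EGR1, an immediate-early zinc finger factor induced by ERK, was higher in both t(4;11) lines. RS4;11 had 3.74 CPM and SEM 13.7 CPM, whereas NALM6 had 0.959 CPM and REH 1.19 CPM. The intervals of NALM6 and REH overlapped, and those of the t(4;11) lines did not reach them. Its log2 fold change was 3.11 (SE 0.90), with an unadjusted p of 0.0285 and an adjusted p of 0.381 in edgeR's quasi-likelihood test. DESeq2 called EGR1 higher (adjusted p = 0.0115), while edgeR's exact test did not (adjusted p = 0.297). The value was 1.93 without SEM. EGR1 lies on chromosome 5 (137801181 to 137805004, hg19), and its promoter is the one shown above with 2 CArG boxes.

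Set against all genes, edgeR's quasi-likelihood test called none of the 9 members tested and 0 of the 13844 genes (0%), the smallest adjusted p of all being 0.0507. At an unadjusted p under 0.05 it had 1668 genes. SPRY4 and EGR1 were the members among them, and 6.18% of all genes met that limit in the higher direction. DESeq2 called 1593 genes. Both members it called were higher, as were 5.69% of the genes it adjusted. Of the 408 genes called by the exact test SPRY4 was the member, with 1.91% of genes called higher. The authors' deposited DESeq table called no member (1.56% of its genes in either direction), with an adjusted p of 0.981 for SPRY4 and 1 for the other members.

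Of the 9 members tested, 3 were higher and 2 lower in each t(4;11) line than in either control. Among all tested genes 19.0% were higher and 28.3% lower by the same criterion, and 24.2% and 23.4% with TMM library sizes, under which DUSP6 dropped out of the lower ones. The median log2 fold change of the 9 was 1.26, beside -0.02 over all genes tested. It depended on single lines, with 0.23 without SEM, 0.38 without NALM6 and 3.28 without REH.

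**Figure D3:**
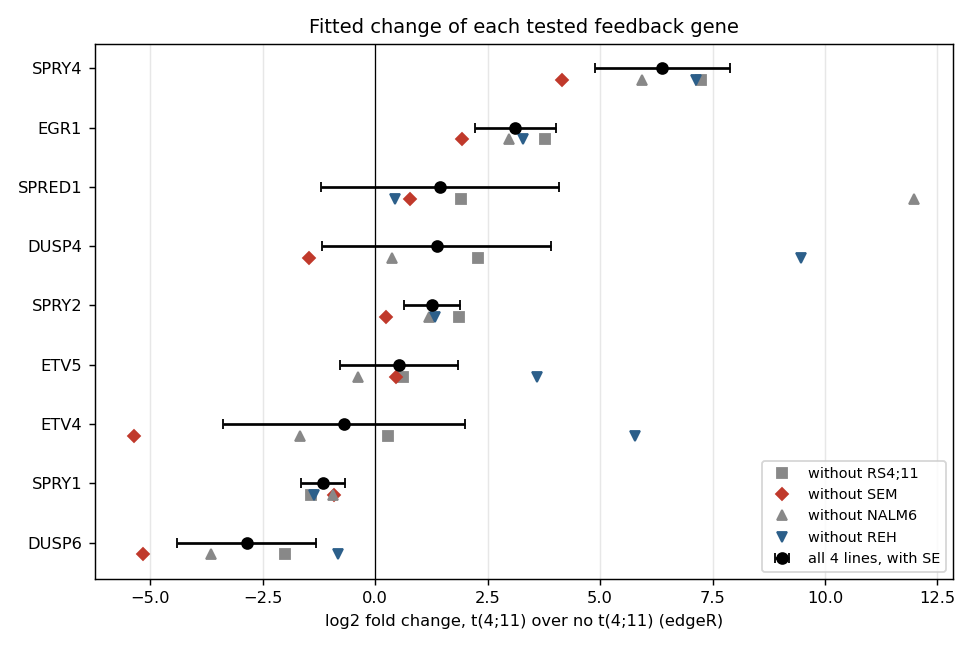
Fitted log2 fold change of t(4;11) over no t(4;11) for the 9 genes tested. Black points use all 4 lines, with bars of 1 SE, and the other symbols leave out 1 line each. SPRY4 and EGR1 stay above 0 and SPRY1 and DUSP6 below it, while DUSP4, ETV4 and ETV5 cross 0. The far right points of DUSP4 and SPRED1 are fits against a lone control with 0 or 1 count and are no estimate of size.

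Levels of most members varied widely over the 4 lines. The highest of the 4 lines was above the lowest by a median of 55.6-fold over the 9 tested members, beside 2.13-fold over all genes tested, with levels under 3 counts set to 3 counts. Because the members were chosen with earlier results of these data known, this contrast is a description and no test. The span between the highest and lowest line crosses the groups for most members. The median of 55.6-fold is the value of DUSP4, whose lowest line, NALM6, had 0 counts and was set to 3 counts. SEM was the highest line for 5 members (DUSP4, SPRY2, SPRY4, SPRED1 and EGR1), REH for 3 (DUSP6, ETV4 and ETV5) and NALM6 for SPRY1. NALM6 was the lowest line for 6 of the 9. Its counting interval was clear of the next-lowest line for DUSP4 and ETV5. For SPRY2, SPRY4, ETV4 and EGR1 it overlapped that of the next-lowest line. Over all genes tested, SEM was highest for 22.0%, REH for 32.3% and NALM6 for 28.4%, and NALM6 was lowest for 23.4%.

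Within the t(4;11) group, SEM exceeded RS4;11 at least 4-fold for DUSP4, DUSP6, SPRY4 and ETV4, as it did for 5.49% of all genes. The ratio was 9.18 for DUSP6 (counting interval 7.89 to 10.7), 8.76 for SPRY4 (7.66 to 10.0) and 52.5 for ETV4 (25.1 to 132). No member was 4-fold higher in RS4;11, as 4.46% of genes were. Within the controls, REH exceeded NALM6 at least 4-fold for DUSP4, DUSP6, ETV4 and ETV5, as it did for 10.2% of genes. Here the ratio was 7.14 for DUSP6 (6.79 to 7.51) and 15.9 for ETV5 (13.8 to 18.3). For DUSP4, at 0 counts in NALM6, REH was at least 24.3-fold higher against a floor of 3 counts in NALM6. SPRED1 was the tested member at least 4-fold higher in NALM6, as were 5.21% of genes. Other members differed little within a group, such as ETV5 between SEM and RS4;11 (1.15-fold) and SPRY2 between REH and NALM6 (1.11-fold). With 1 library per line these differences have no test.

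Levels of different genes can be compared only per length, for which the authors' deposited FPKM per group was used. In the t(4;11) group SPRY2 led with 26.3 FPKM, followed by ETV5 (13.3), SPRED1 (7.59), DUSP6 (7.43), SPRY4 (4.97) and EGR1 (2.95). In the control group DUSP6 led with 53.5 FPKM, followed by SPRY2 (11.1), ETV5 (9.22) and SPRY1 (5.70). SPRY4 and EGR1 were then at 0.0586 and 0.341 FPKM. These are the authors' values for a group and carry no error here. The order within a group need not hold in each of its lines, since DUSP6, for example, differed 9.18-fold between SEM and RS4;11.

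The genes most like DUSP6 over the 4 lines, by the distance between centred log2(CPM + 1) profiles, were ELOVL2 (distance 0.848), ZNF718 (0.850) and TRAF5 (1.02). TRAF5, for example, had 1.27 CPM (RS4;11) and 13.2 CPM (SEM), and 12.9 CPM (NALM6) and 47.8 CPM (REH) in the controls. Of the other members ETV4 came nearest to DUSP6, at rank 333 of 13843 genes, and SPRED1 was at rank 13755. For EGR1 the nearest genes were LTBR (0.0838), GAS8 (0.216) and NRXN3 (0.261), all of them at 0 counts in NALM6. SPRY2 ranked 146, DUSP4 696 and SPRY4 1195 in likeness to EGR1, and DUSP6 ranked 13537. A profile of 4 lines describes these lines only.

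The rest of the pathway was examined in 5 lists. Of 65 further genes, 57 were tested by edgeR. Its quasi-likelihood test called 0 and gave 6 an unadjusted p under 0.05, as it did 12.0% of all genes tested. DESeq2 called 6 of the further genes, beside 11.3% of the genes it adjusted, and the exact test called 1, beside 2.95%. These shares are near those over all genes. The RAS cascade itself (15 genes, all tested) had a median log2 fold change of 0.20. RRAS2, a RAS GTPase, had a log2 fold change of 0.58, while BRAF and MAPK3 (the gene of ERK1) had the lowest values at -0.35 and -0.28.

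In the list of RAS GTPase activators and other brakes on the pathway, RASAL1 had the lowest log2 fold change. RASAL1, a RAS GTPase-activating protein, had 0.559 CPM (RS4;11) and 0.0595 CPM (SEM), and 83.9 CPM (NALM6) and 35.2 CPM (REH) in the controls. Its log2 fold change was -7.42 (SE 1.39, edgeR adjusted p = 0.313), and the authors' deposited DESeq table called it lower (adjusted p = 0.00174). Their deposited Cuffdiff table did not call RASAL1 (q = 0.166). Over the 13 tested genes of this list, 6 were lower and 1 was higher in each t(4;11) line than in either control, beside 28.3% and 19.0% of all tested genes (23.4% and 24.2% with TMM library sizes). The median log2 fold change was -0.39.

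The list of RAS activators and adaptors had a median log2 change of -0.01 over 11 tested genes. RASGRP3, an exchange factor for RAS, had 104 counts (RS4;11) and 139 counts (SEM), and 9 counts (NALM6) and 73 counts (REH) in the controls, before scaling to depth (log2 fold change 2.60, SE 1.06, edgeR adjusted p = 0.457). The adaptor GAB2 had a log2 fold change of 0.74, and RASGRF2 and GAB1 had -1.56 and -0.71. Among other MAP kinase phosphatases, with 5 of 7 tested, the median was 0.05. DUSP10, which acts on JNK and p38, had a log2 fold change of 1.53 and DUSP16, also a JNK phosphatase, -0.81. DUSP1 had 59.6 CPM (RS4;11) and 25.5 CPM (SEM), and 29.2 CPM (NALM6) and 265 CPM (REH) in the controls (log2 fold change -1.69, SE 1.21, edgeR adjusted p = 0.625). REH was thus the highest line for DUSP1 as for DUSP6. DUSP2, a nuclear phosphatase of blood cells, had 10.0 CPM (RS4;11), 6.13 CPM (SEM), 8.70 CPM (NALM6) and a single count in REH.

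Other genes known as ERK-induced had a median of -0.13 on that scale over 13 tested of 16. FOSL1, a FOS relative, had 0.308 CPM (RS4;11) and 2.71 CPM (SEM), and 0.178 CPM (NALM6) and 0.202 CPM (REH) in the controls (log2 fold change 3.05, SE 1.31, edgeR adjusted p = 0.472). EGR3 had a log2 fold change of 1.60, and PHLDA1 and IER3 had -1.23 and -0.99. The other 4 lists held no gene called in a deposited table.

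**Figure D4:**
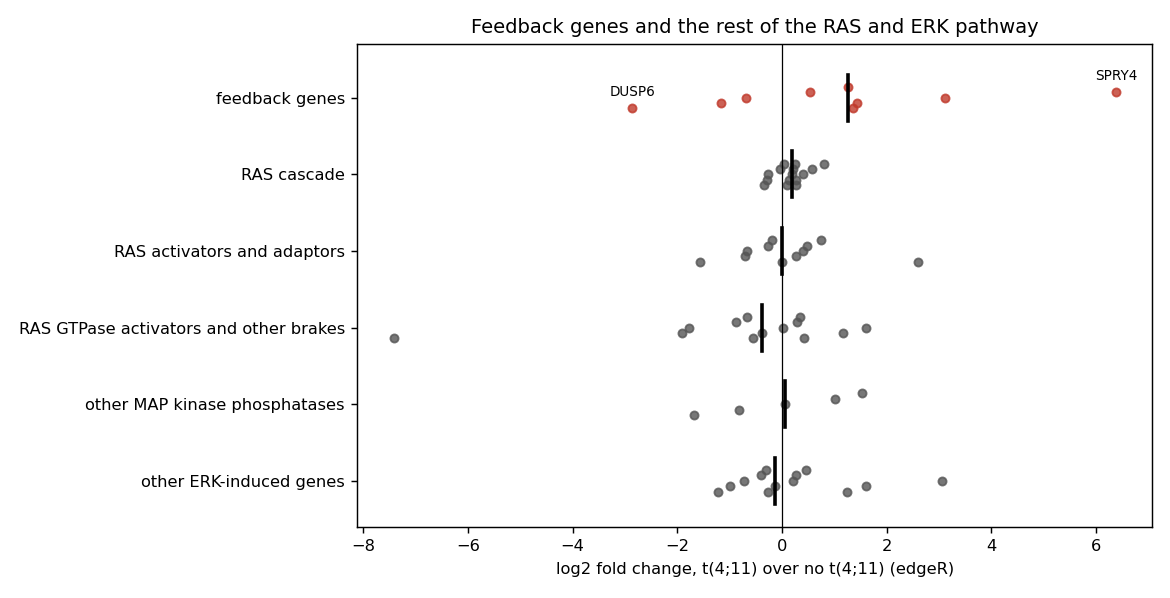
Log2 fold change of t(4;11) over no t(4;11) for the tested genes of the feedback list (red) and of 5 further pathway lists (grey), with a black bar at each list's median and the extreme genes of the feedback list named. The feedback genes reach between -2.86 (DUSP6) and 6.39 (SPRY4), beside a median of 0.20 for the RAS cascade.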

How the data were processed

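Total RNA of 4 cell lines was made into libraries with a TruSeq RNA kit, per the labels' protocols. Such a kit does not mark strand, so overlapping antisense genes are not separated. CASAVA 1.8.2, TopHat2 2.0.4, HTSeq, DESeq, Cuffdiff and the build hg19 appear in the submitters' processing notes, which list them with neither role nor setting. Per the file headers, the deposited tables hold HTSeq counts per gene and line and the authors' DESeq results (fold change as a ratio, p-values and adjusted p-values). Per the file headers, the authors' Cuffdiff table holds FPKM summarised per group, log2 fold changes, p-values and q-values. Both deposited fold changes run control over t(4;11), and their sign was turned. Loci are those of the Cuffdiff table with the start counted from 1.

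The deposited counts were divided by each column's sum for CPM. The test was edgeR 4.0.16 (R 4.3.3): TMM scaling, the default filter filterByExpr, then glmQLFit and glmQLFTest with two-sided p-values, adjusted by Benjamini-Hochberg over 13844 genes with a threshold of 0.05. The script was first tested on simulated data with a smaller spread than that between these lines. It had to recover the sign and size of large changes, and no share of calls was required. The fit had 2 residual degrees of freedom and a biological coefficient of variation of 0.699. An SE is the log2 fold change divided by the square root of F. Alternatives were DESeq2 1.42.0, the exact test of edgeR, other scalings and filters, and leaving out each line. Replicate numbers follow listing order and pair no lines. Ratios of counts have exact binomial intervals. Promoters came from RefSeq. Figures used matplotlib 3.10.9.

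Members and lists were chosen with earlier results of these data known. The text names all 10 members. Of each further list it names genes called in either deposited table, or else the 2 highest and 2 lowest log2 fold changes. It also names the 3 genes most like DUSP6 and the 3 most like EGR1. Some genes that this rule would name are not reported here, though counts and medians of the lists include them. The DESeq normalized columns were not used.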

Additional observations from a re-analysis of the deposited data

How the results depend on the processing

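Signs of SPRY4, EGR1, SPRY2, SPRED1, SPRY1 and DUSP6 were kept in every alternative run. With all 4 lines no member changed sign. Leaving out 1 line moved the log2 fold change of DUSP4 between -1.47 and 9.46, that of ETV4 between -5.37 and 5.78 and that of ETV5 between -0.37 and 3.61. The value of 9.46 is fitted against NALM6 alone, at 0 counts, and is no bound. The members' median lay between 0.23 and 3.28 when 1 line was left out. A lone line in a group is assumed to vary like the other group.

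Counts of calls depended on the tool. All genes called numbered 0 with TMM, RLE or column sums alone and without any 1 line, 5 with no filter on low counts, 4 with at least 10 counts in each line of a group, 408 by edgeR's exact test and 1593 by DESeq2. Members called numbered 2 by DESeq2 (SPRY4 and EGR1), 1 by the exact test (SPRY4) and 0 otherwise. Further pathway genes called numbered 6 by DESeq2 (GAB2, LZTR1, NRAS and RASAL1 among them), 1 by the exact test (RASAL1) and 0 otherwise. Members not overlapping between groups numbered 5 with column sums and 4 with TMM or RLE library sizes, alternatives added after seeing the data. Of all genes tested, 19.0% were higher and 28.3% lower without overlap with column sums, and 24.2% and 23.4% with TMM library sizes. The cause of the differences between tools and scalings was not tested. No paired analysis was possible because replicate numbers only follow the order in which the lines are listed and pair no lines. Counts under 10, as for ETV4 in RS4;11 and NALM6, limit the precision of those levels.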

Other observations

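Further genes of the pathway lists whose levels differed between lines of the same group were picked out after their values were seen. ETV1, the remaining PEA3 factor, had 0 counts in RS4;11 and 222 counts in SEM (6.60 CPM), against 0 counts in NALM6 and 1 count in REH. RASAL2, a RAS GTPase-activating protein, had 0.116 CPM (RS4;11) and 46.8 CPM (SEM), and 20.4 CPM (NALM6) and 1.95 CPM (REH) in the controls. SPRED2, the relative of SPRED1, had 13.8 CPM (RS4;11) and 47.7 CPM (SEM), and 36.7 CPM (NALM6) and 16.9 CPM (REH) in the controls, while SPRED1 was at a single count in REH. MYC, a transcription factor stabilised by ERK, had 462 CPM (RS4;11) and 438 CPM (SEM), and 1212 CPM (NALM6) and 395 CPM (REH) in the controls.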
